A study of Mus musculus with 12 samples.

Results

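Translation initiation factors bring the small ribosomal subunit, the initiator tRNA and an mRNA together and then release the large subunit to join them. eIF2 carries the initiator tRNA and eIF2B recharges eIF2 with GTP. eIF3 holds the small subunit and the mRNA together. Within eIF4F, eIF4E binds the cap of the mRNA, eIF4G is the scaffold and eIF4A unwinds the leader, and phosphorylation of eIF2 or binding of eIF4E by the 4E-BPs lowers initiation. The genes described here are all rows of the count table that belong to a protein-coding mouse gene whose symbol is Eif followed by a digit, apart from the eIF2 kinases (Eif2ak) and the 4E-BPs (Eif4ebp), which act on the factors and are described beside them. This gave 48 genes of the 21974 protein-coding genes and 55487 rows of the table. They fall into 5 genes of the eIF1 family, 4 of eIF2, 5 of eIF2B, 14 of eIF3, 3 of eIF4A, 2 for eIF4B and eIF4H, 5 of the eIF4E family, 3 of eIF4G, 2 for eIF2A and eIF2D, and 5 for eIF5, eIF5A, eIF5B and eIF6. Of the 48, 46 passed the filter on low counts. Eif2s3y, the Y-linked copy of the eIF2γ gene, had at most 1 count in any sample and Eif4e1b, a germline relative of Eif4e, had 0 counts in all 12, and these 2 were not tested.

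RNA was sequenced from wild type primary mesenchymal stromal cells (MSCs) of the bone marrow of C57BL/6 mice, which were grown to near confluency, and the treated cells were incubated with A1 for 6 h. According to the study's methods, the marrow came from the femurs of young adult females and the cells were expanded in culture and banked before use. The 3 groups of 4 samples were untreated MSCs (Negative), MSCs given 50 µM of A1 (A1) and MSCs given 50 µM of A1 with 1 mg/mL of ovalbumin (A1-OVA). A1 is a variant of the Accum molecule that joins cholic acid, a bile acid, to the nuclear localization signal of hnRNPA1, and the study gave it to MSCs to release endocytosed antigen into the cytosol. Ovalbumin was never given without A1, so that its own effect cannot be told apart from its effect beside A1. The description of the A1-OVA medium in the labels also names insulin, with no amount, and does not do so for the A1 medium. If only the A1-OVA medium held insulin, insulin and ovalbumin cannot be told apart in the difference between A1-OVA and A1. The part of insulin was not tested. Nothing in the labels says that the 4 samples of a group came from separate mice or cultures, so that the p-values measure the spread between these samples, which may be technical.

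The samples held 15644991 to 16881995 counts in Negative, 13702348 to 14347870 in A1 and 14359973 to 16674294 in A1-OVA. Every A1 sample thus held fewer counts than every Negative sample, and the part of depth in their difference was not tested. The MSC identity of the cells was read from 8 marker genes. Cd44, Pdgfrb, Pdgfra and Vcam1 had between 1515 and 6675 counts in every sample, Ly6a 271 to 598 and Eng 116 to 169. Thy1 (CD90) had at most 17 and Nt5e (CD73) at most 14. These 2 of the markers by which MSCs are usually defined were thus near 0 at the RNA level. The study examined CD44, CD45, CD73 and CD90 protein by flow cytometry and reported that A1 left the MSC phenotype unchanged. Of 6 hematopoietic markers, Cd3e was at 0 in every sample, Ptprc (CD45) had at most 4 counts and Cd68 at most 31, and the summed level of the list lay between 1.76 and 2.23 CPM (counts scaled to a common library size) in Negative, 1.68 and 1.96 in A1 and 1.81 and 2.77 in A1-OVA. The 4 endothelial markers had at most 5 counts each. Treatment also moved MSC markers, with a log2 fold change of 1.39 for Cd44, -0.99 for Pdgfra and -0.95 for Vcam1 in A1 against Negative.

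Most initiation factor mRNAs were modestly higher in A1-treated MSCs than in untreated MSCs. In A1 against Negative, 31 of the 46 tested genes were higher (67.4%) at an adjusted p under 0.05 by edgeR's quasi-likelihood test and 4 were lower (8.7%), where 31.7% of all 11314 tested genes were higher and 31.1% were lower. A gene that passed this threshold is referred to as called. The median log2 fold change of the 46 genes was 0.23, against -0.0017 over all tested genes, and 39 of them had a positive value. In 30 genes all 4 A1 samples lay above all 4 Negative samples, and in 4 genes all lay below. Such separation was common, with 3165 of all 11314 tested genes above and 2988 below. Of the 46, 6 were called with a log2 fold change of 0.5 or more in either direction, where 21% of all tested genes were. The 5 that rose this far were Eif1a, Eif1ad, Eif2b3, Eif5a2 and Eif6, and the 1 that fell was Eif4e3. Initiation factor mRNAs made up 1.294% to 1.312% of protein-coding counts in the Negative samples, 1.354% to 1.391% in the A1 samples and 1.323% to 1.352% in the A1-OVA samples, with no overlap between the 3 groups. In RNA from whole cultures, a lower level in every cell and fewer cells that express a gene cannot be told apart.

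**Figure D1:**
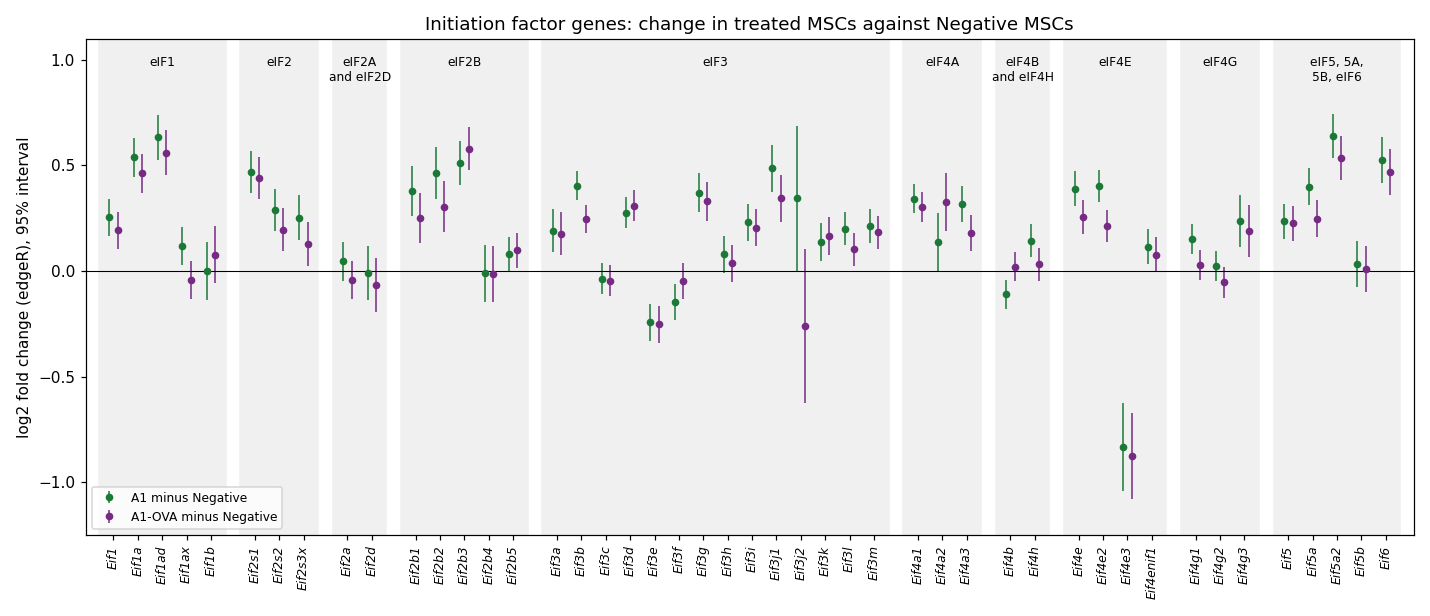
log2 fold change of the 46 tested initiation factor genes (vertical axis, edgeR, with 95% confidence intervals) for A1 minus Negative in green and A1-OVA minus Negative in purple, with the genes grouped by factor along the horizontal axis. Most points lie between 0 and 0.64, and Eif4e3 stands lowest at -0.84 and -0.88.

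Most initiation factors were higher in A1-OVA than in Negative as well. In this comparison 29 of the 46 genes were higher (63%) and 2 were lower (4.35%), beside 29.7% and 27.9% of all tested genes. The median log2 fold change was 0.18, against 0.0036 over all tested genes. Past an absolute log2 fold change of 0.5 stood 4 genes, where 17.7% of all tested genes did so, namely Eif1ad, Eif2b3 and Eif5a2 upwards and Eif4e3 downwards. Both comparisons use the same 4 Negative samples, so that they are not independent of each other.

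The promoters of the initiation factor genes were searched for motifs, whatever the change of the gene. RefSeq windows of GRCm38.p6, from 250 bases before to 50 bases after an annotated start, were matched by symbol for 38 of the 48 genes, and a gene was counted as holding a motif where the window of any of its starts held it. Eif1a, Eif2b3, Eif3e, Eif3h, Eif3i, Eif3j2, Eif4e1b, Eif4e3, Eif4g2 and Eif6 had no window. CACGTG, the E-box letters to which Myc with Max and related factors bind, reads the same on both strands and stood in the windows of 10 of the 38 genes (26.3%), where 8.09% of all 27025 genes with a window and 11.9% of the 8954 tested genes with a window held it. It was present in 8 of the 27 windowed genes that were higher with A1, in 1 of the 2 that were lower and in 1 of the 8 that were not called. CCAAT, the letters read by NF-Y, was searched on both strands and was held by 13 genes (34.2%), against 41.1% of all genes and 43.9% of tested genes. TGATGNAA, a core of the elements bound by ATF4 with C/EBP proteins, was searched on both strands and was held by 1 gene, Eif2s3x (2.63%), against 4.51% of all genes and 2.6% of tested genes. A C at the start followed by 4 C or T on the gene's strand, as in the terminal oligopyrimidine tract of ribosomal protein mRNAs, was held by 2 genes, Eif2s3x and Eif3f (5.26%), against 3.01% of all genes and 2.91% of tested genes. These are matches of letters and say nothing about binding.

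Windows of 60 bases around CACGTG are printed for 5 genes, 4 that were higher with A1 and Eif3f, which was lower, with every CACGTG in capitals and each sequence 5′ to 3′ on the gene's strand. In the GENCODE annotation those of Eif4a1, Eif5a2 and Eif3f lie upstream of the gene and outside any gene, and those of Eif5a and Eif4g1 lie in an intron of the gene, before a start that RefSeq annotates further in.
Eif4a1 (chr11:69672580-69672639, minus strand): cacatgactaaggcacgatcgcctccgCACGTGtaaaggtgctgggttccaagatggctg
Eif4g1 (chr16:20672646-20672705, plus strand): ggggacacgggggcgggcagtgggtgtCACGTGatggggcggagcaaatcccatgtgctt
Eif5a (chr11:69921428-69921487, minus strand): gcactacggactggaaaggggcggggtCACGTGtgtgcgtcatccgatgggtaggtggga
Eif5a2 (chr3:28781133-28781192, plus strand): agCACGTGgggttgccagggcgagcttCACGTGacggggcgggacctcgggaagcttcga
Eif3f (chr7:108934320-108934379, plus strand): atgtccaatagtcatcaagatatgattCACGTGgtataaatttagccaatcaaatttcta

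The CACGTG printed for Eif4a1 began 189 bases before the annotated start, that of Eif4g1 54, that of Eif5a 74 (1 of its annotated starts) and that of Eif3f 68 bases before it, and both of Eif5a2 stand in its printed window, at 142 and 117 bases before the start. Eif4g1 held a further CACGTG 15 bases after its start, and Eif5a 1 more in the window of another of its starts, 178 bases before it. Both genes with the pyrimidine run are printed over the 15 bases before and the 15 bases from the annotated start, with the 5 matching bases in capitals.
Eif2s3x (chrX:94212637-94212666, minus strand): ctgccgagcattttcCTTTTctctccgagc
Eif3f (chr7:108934400-108934429, plus strand): tctgttctaggctctCTCTCtttctcggca
The annotated start of Eif2s3x lies in an exon of the gene and that of Eif3f at the first exon. Of these 2 genes, Eif2s3x was higher and Eif3f lower with A1.

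Initiation factor mRNAs differed in level by orders of magnitude when scaled to exonic length. In Negative, Eif5a had the highest level at 284.5 ± 15.2 RPKM (CPM per kilobase of exon, mean ± SD, n = 4), followed by Eif4g2 at 190.4 ± 2.82 RPKM, Eif4b at 178 ± 3.07 RPKM and Eif3h at 156 ± 8.64 RPKM. At the other end stood Eif3j2 at 0.793 ± 0.117 RPKM, Eif2d at 3.897 ± 0.233 RPKM, Eif2b3 at 4.48 ± 0.139 RPKM and Eif4e3 at 6.12 ± 0.664 RPKM. Within eIF2B, the ε subunit gene Eif2b5 (41.4 ± 1.77 RPKM) stood above Eif2b1 (18.1 ± 0.729 RPKM), Eif2b2 (15.4 ± 1.21 RPKM), Eif2b4 (9.88 ± 0.525 RPKM) and Eif2b3. Within eIF4E, Eif4e at 17.1 ± 0.582 RPKM and Eif4e2 at 15.2 ± 0.454 RPKM were neighbours, both above Eif4e3. Among the helicases, Eif4a1 (135 ± 2.44 RPKM) stood above Eif4a2 (57.5 ± 4.197 RPKM) and Eif4a3 (43.5 ± 1.45 RPKM). These levels rest on the union of annotated exons, which is longer than the transcript in use where a gene has several.

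**Figure D2:**
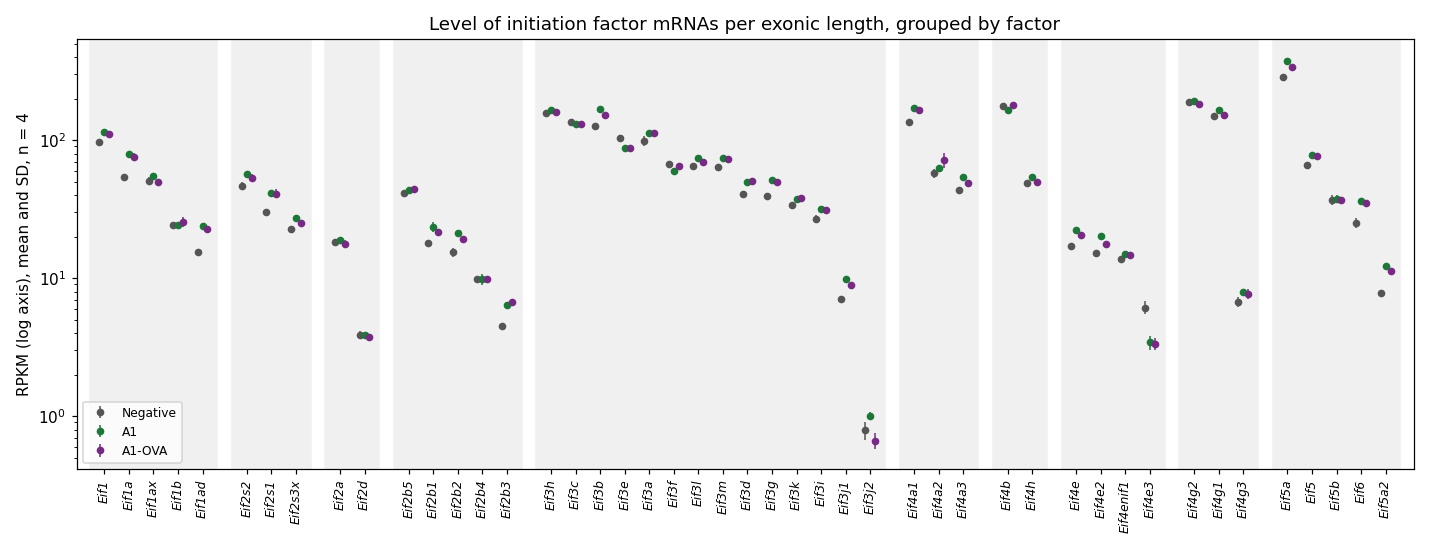
Level of each tested initiation factor mRNA in RPKM on a log axis (mean and SD, n = 4 per group) in Negative (grey), A1 (green) and A1-OVA (purple), ordered by level within each factor. Levels in Negative run from 0.793 RPKM for Eif3j2 to 284.5 RPKM for Eif5a, and the difference between groups is small beside the difference between genes.

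The genes of all 3 tested subunits of eIF2 were higher with A1 and with A1-OVA, where 31.7% and 29.7% of all tested genes were. Eif2s1 encodes the α subunit, whose phosphorylated form blocks eIF2B. Eif2s1 (chromosome 12, 78861819 to 78887010) lay at 155, 155, 142 and 146 CPM in Negative, 207, 203, 217 and 199.5 CPM in A1 and 216, 216, 186 and 194 CPM in A1-OVA. Every treated sample stood above every Negative sample, and the log2 fold change was 0.47 ± 0.049 (SE, adjusted p = 3.01e-08) with A1 and 0.44 ± 0.048 (SE, adjusted p = 8.15e-08) with A1-OVA. Eif2s2, the gene of the β subunit, which binds eIF5 and eIF2B, lay at 304.5, 344, 305 and 304 CPM in Negative, 381, 373.5, 408 and 374 CPM in A1 and 392, 359, 339.9 and 349.7 CPM in A1-OVA. A1 was above Negative throughout, whereas A1-OVA replicate 3 fell below Negative replicate 2, the sample that stood apart from the other 3 Negative samples. The change was 0.29 ± 0.049 (SE, adjusted p = 2.57e-05) with A1 and 0.20 ± 0.049 (SE, adjusted p = 0.00158) with A1-OVA. Eif2s3x, the gene of the GTP-binding γ subunit, lay at 89.2, 89.96, 85.9 and 82.2 CPM in Negative, 105, 94.7, 109.9 and 104 CPM in A1 and 103, 95.99, 88.5 and 92.6 CPM in A1-OVA. A1 did not overlap Negative and A1-OVA did, with changes of 0.25 ± 0.051 (SE, adjusted p = 0.00019) and 0.13 ± 0.051 (SE, adjusted p = 0.0346), and the second call was lost in 9 of 20 other settings of the fit. Between A1-OVA and A1 the log2 fold changes of the 3 genes ran from -0.12 (adjusted p = 0.112) to -0.027 (adjusted p = 0.755). Eif2a and Eif2d encode factors that can deliver tRNA without eIF2. Eif2a had 0.046 with A1 (adjusted p = 0.378) and -0.043 with A1-OVA (adjusted p = 0.416), and Eif2d had -0.0089 (adjusted p = 0.91) and -0.066 (adjusted p = 0.366).

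Of the 5 genes of eIF2B, the exchange factor of eIF2, those of the α, β and γ subunits rose in both comparisons, the ε subunit gene was called with A1-OVA and the δ subunit gene in neither. Eif2b3, the γ subunit gene (chromosome 4, 117019402 to 117087306), lay at 28.9, 29.8, 30.01 and 28.03 CPM in Negative, 41.4, 40.4, 42.4 and 42.3 CPM in A1 and 44.1, 44.7, 44.3 and 41.4 CPM in A1-OVA. All treated samples stood above all Negative samples by a wide margin, and the change was 0.51 ± 0.050 (SE, adjusted p = 1.07e-08) with A1 and 0.58 ± 0.049 (SE, adjusted p = 1.27e-09) with A1-OVA. Eif2b2, for the β subunit, lay at 32.4, 27.3, 27.97 and 28.7 CPM in Negative, 40.1, 39.5, 42.1 and 38.99 CPM in A1 and 37.8, 34, 36.3 and 35.7 CPM in A1-OVA. Its groups did not overlap against Negative, and its changes were 0.46 ± 0.058 (SE, adjusted p = 5.49e-07) and 0.30 ± 0.058 (SE, adjusted p = 0.000133). Eif2b1, for the α subunit that holds the complex together as a dimer, lay at 49.5, 46.6, 45.1 and 45.96 CPM in Negative, 62.6, 53.6, 64.5 and 62.3 CPM in A1 and 56.3, 59.6, 52.8 and 54.1 CPM in A1-OVA. It changed by 0.38 ± 0.057 (SE, adjusted p = 6.62e-06) and 0.25 ± 0.057 (SE, adjusted p = 0.000676), again without overlap.

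Eif2b4, for the δ subunit, a regulatory subunit, lay at 27.7, 24.6, 25.4 and 25.1 CPM in Negative, 26.4, 28.02, 24.5 and 23.02 CPM in A1 and 26.5, 24.1, 25.9 and 25.3 CPM in A1-OVA. The 3 groups overlapped, and its log2 fold change was -0.011 with A1 (95% interval -0.15 to 0.13, adjusted p = 0.895) and -0.015 with A1-OVA (95% interval -0.15 to 0.12, adjusted p = 0.861). Eif2b5, for the catalytic ε subunit, lay at 112, 103, 103.5 and 111 CPM in Negative, 116, 114, 114 and 109.8 CPM in A1 and 119.7, 116, 113 and 111 CPM in A1-OVA. The groups overlapped as well, with changes of 0.079 ± 0.040 (SE, adjusted p = 0.0883) and 0.099 ± 0.039 (SE, adjusted p = 0.0379), the second of which was lost in 13 of 20 other settings. The difference between subunit genes was not tested. The 95% intervals of Eif2b4 and Eif2b5 with A1 end at 0.13 and 0.16, and that of Eif2b3 begins at 0.41. In A1-OVA against A1 the log2 fold changes of the 5 genes ran from -0.16 for Eif2b2 (adjusted p = 0.0702) to 0.067 for Eif2b3 (adjusted p = 0.385).

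**Figure D3:**
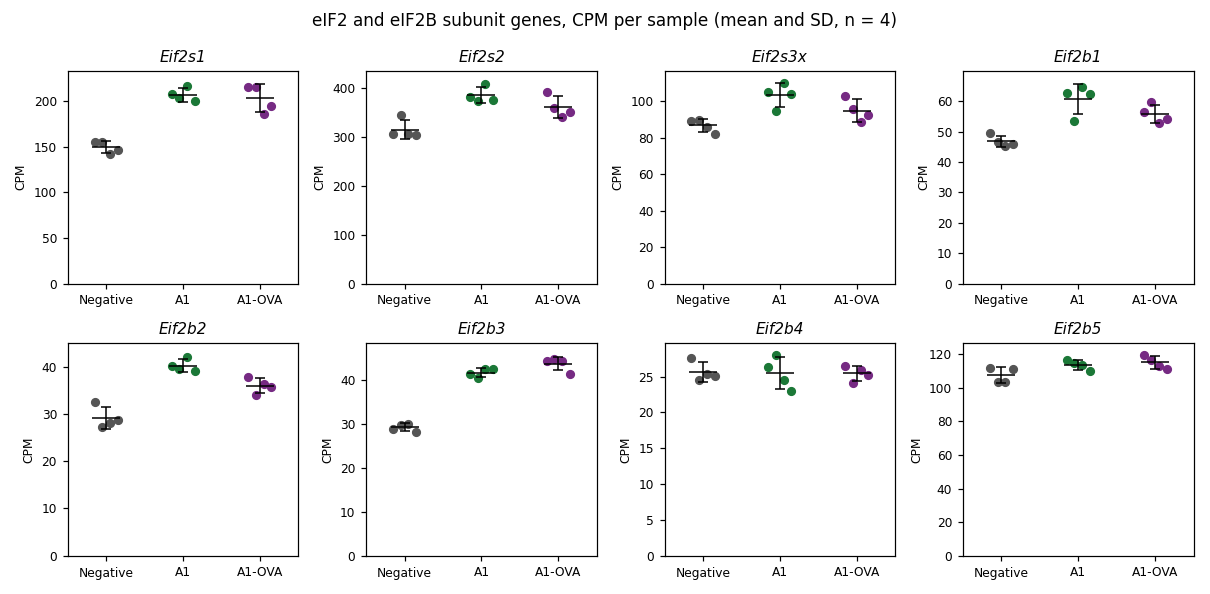
CPM of the eIF2 and eIF2B subunit genes in each sample (points) with the mean and SD of each group (bars, n = 4), every vertical axis starting at 0. Eif2s1, Eif2b1, Eif2b2 and Eif2b3 have no overlap between treated and Negative samples, and for Eif2b4 and Eif2b5 each treated group overlaps Negative.

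In a list of 12 genes of eIF2 kinases, phosphatase subunits and their partners, 3 were higher and 3 lower with A1 (25% each, median log2 fold change -0.072), not above the 31.7% and 31.1% of all tested genes. With A1-OVA 3 were higher and 7 lower (25% and 58.3%, median -0.16), beside 29.7% and 27.9% of all tested genes. Of the 4 kinases, Eif2ak2, the double-stranded RNA sensor PKR, fell in both, from 102, 121, 111 and 106.5 CPM in Negative to 89.6, 91.5, 86.03 and 91.1 CPM in A1 and 87.5, 88.8, 84.8 and 87.4 CPM in A1-OVA. Its log2 fold changes were -0.30 ± 0.047 (SE, adjusted p = 9.4e-06) and -0.34 ± 0.046 (SE, adjusted p = 1.93e-06). Eif2ak1, the heme-regulated kinase, had -0.093 ± 0.046 (SE, adjusted p = 0.0871) with A1 and -0.21 ± 0.046 (SE, adjusted p = 0.000501) with A1-OVA. Eif2ak3, the kinase PERK of the endoplasmic reticulum, was not called in either, at 0.047 and 0.041, and Eif2ak4, the amino acid sensor GCN2, had 0.0091 with A1 and 0.14 ± 0.049 (SE, adjusted p = 0.0188) with A1-OVA, a call that was lost in 2 of 20 other settings.

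Both regulatory subunits that direct a phosphatase to eIF2α changed, and in opposite directions. Ppp1r15a, the stress-induced GADD34, lay at 19.8, 19.3, 20.1 and 21.3 CPM in Negative, 28.8, 28.6, 31.4 and 31.3 CPM in A1 and 26.7, 29, 30.8 and 29.9 CPM in A1-OVA, without overlap, and rose by 0.58 ± 0.062 (SE, adjusted p = 5.79e-08) and 0.53 ± 0.062 (SE, adjusted p = 1.83e-07) on the log2 scale. Ppp1r15b, the constitutive CReP, lay at 298.5, 325, 294 and 295 CPM in Negative, 248, 245, 252 and 241 CPM in A1 and 252, 248, 243 and 235.5 CPM in A1-OVA, also without overlap, at -0.30 ± 0.039 (SE, adjusted p = 9.42e-07) and -0.31 ± 0.039 (SE, adjusted p = 6.06e-07). Impact, an inhibitor of GCN2 activation, lay at 181.5, 193, 183.5 and 176 CPM in Negative, 118, 123, 119 and 119 CPM in A1 and 132.5, 146, 150 and 152 CPM in A1-OVA. It was lower with A1 at -0.62 ± 0.044 (SE, adjusted p = 6.57e-11) and with A1-OVA at -0.34 ± 0.043 (SE, adjusted p = 7.24e-07), and it was higher in A1-OVA than in A1 by 0.28 ± 0.044 (SE, adjusted p = 0.000252).

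Of the 5 genes grouped by symbol under eIF1, 4 were higher with A1 (80%) and 3 with A1-OVA (60%), beside 31.7% and 29.7% of all tested genes. eIF1 and eIF1A keep the small subunit open while it scans for the start codon. Eif1a, 1 of the 2 genes of eIF1A, lay at 226, 236, 222 and 223 CPM in Negative, 319.5, 322, 347 and 330.5 CPM in A1 and 331, 331, 296 and 294 CPM in A1-OVA, and all treated samples stood above all Negative samples. It changed by 0.54 ± 0.045 (SE, adjusted p = 8.64e-10) and 0.46 ± 0.044 (SE, adjusted p = 1.06e-08). Eif1ax, the X-linked gene of the same factor, lay at 273, 286.5, 258 and 255 CPM in Negative, 289, 281, 308 and 285 CPM in A1 and 270.2, 259.5, 246 and 265 CPM in A1-OVA. Here the A1 and Negative samples overlapped, with 0.12 ± 0.043 (SE, adjusted p = 0.0221) with A1 and -0.044 ± 0.043 (SE, adjusted p = 0.405) with A1-OVA. Reads shared by these near-identical copies may have been assigned to neither or split between them. Eif1ad, which is named for its eIF1A domain (chromosome 19, 5366741 to 5371526), lay at 44.2, 40.02, 43.4 and 44.8 CPM in Negative, 69.3, 61.4, 69.7 and 66.95 CPM in A1 and 64.3, 61.2, 64.9 and 64.2 CPM in A1-OVA, without overlap, and rose by 0.63 ± 0.051 (SE, adjusted p = 4.84e-10) and 0.56 ± 0.050 (SE, adjusted p = 3.45e-09). Eif1 itself had 0.25 ± 0.042 (SE, adjusted p = 1.94e-05) and 0.19 ± 0.042 (SE, adjusted p = 0.000481), and its paralogue Eif1b was not called, at 0.00050 and 0.078.

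Of the 14 genes of eIF3, 9 were higher and 2 lower with A1 (64.3% and 14.3%), beside 31.7% and 31.1% of all tested genes. With A1-OVA 9 were higher and 1 lower (64.3% and 7.14%), beside 29.7% and 27.9%. The median log2 fold change of the 14 genes was 0.21 and 0.17, and the largest was 0.49, for Eif3j1 with A1. Eif3b, Eif3g and Eif3i encode the subunits at the mRNA entry channel of the ribosome, and all 3 rose. Eif3b lay at 426, 422, 429 and 429 CPM in Negative, 563.5, 561, 564 and 569.9 CPM in A1 and 505, 512, 512 and 495 CPM in A1-OVA. The 3 groups did not overlap, A1 was highest and A1-OVA stood between it and Negative, with 0.41 ± 0.032 (SE, adjusted p = 3.96e-10) and 0.25 ± 0.032 (SE, adjusted p = 9.35e-07). Eif3g lay at 79.6, 75.9, 80.9 and 78.2 CPM in Negative, 100.2, 98.95, 107.5 and 100.5 CPM in A1 and 101, 104.5, 96.9 and 92.9 CPM in A1-OVA, without overlap against Negative, at 0.37 ± 0.044 (SE, adjusted p = 1.99e-07) and 0.33 ± 0.043 (SE, adjusted p = 1.2e-06). Eif3i changed by 0.23 and 0.21, both called. Eif3d, which can bind the cap of some mRNAs itself, lay at 208.5, 196, 209 and 202 CPM in Negative, 253.5, 248, 239 and 248 CPM in A1 and 244.5, 258, 254 and 254 CPM in A1-OVA. Its change was 0.28 ± 0.036 (SE, adjusted p = 8.48e-07) and 0.31 ± 0.036 (SE, adjusted p = 1.81e-07), without overlap.

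The remaining eIF3 genes changed by less than 0.3, apart from Eif3j1 and its copy Eif3j2. Eif3a, the largest subunit, was higher at 0.19 ± 0.049 (SE, adjusted p = 0.00179) with A1, whereas its partner Eif3c was not called at -0.036 (95% interval -0.11 to 0.037). Eif3k, Eif3l and Eif3m rose by 0.14, 0.20 and 0.21, and Eif3h was not called at 0.078 (95% interval -0.0075 to 0.16). Eif3e and Eif3f were the 2 genes that fell. Eif3e had a mean of 697 ± 33.1 CPM in Negative, 589 ± 15.5 CPM in A1 and 585 ± 30.8 CPM in A1-OVA (SD, n = 4), with all treated samples below all Negative samples. Its log2 fold change was -0.24 ± 0.043 (SE, adjusted p = 4.06e-05) and -0.25 ± 0.042 (SE, adjusted p = 2.77e-05). Eif3f, whose promoter window is printed above, was lower with A1 at -0.15 ± 0.041 (SE, adjusted p = 0.00429) and was not called with A1-OVA at -0.048 (adjusted p = 0.325). Eif3j1 encodes a loosely bound subunit that leaves when mRNA is accepted, and lay at 41.8, 43.2, 40.8 and 38 CPM in Negative, 57.1, 56.7, 60.7 and 55.04 CPM in A1 and 53.1, 54.1, 47.99 and 52.8 CPM in A1-OVA, without overlap against Negative, at 0.49 ± 0.053 (SE, adjusted p = 6.13e-08) and 0.34 ± 0.052 (SE, adjusted p = 9.12e-06). Its copy Eif3j2 had between 21 and 36 counts per sample and was not called against Negative, at 0.34 ± 0.16 with A1 and -0.26 ± 0.18 with A1-OVA.

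For eIF4, 8 of 12 tested genes were higher and 2 lower with A1 (66.7% and 16.7%), beside 31.7% and 31.1% of all tested genes. With A1-OVA 6 were higher and 1 lower (50% and 8.33%), beside 29.7% and 27.9%. Eif4a1, the main helicase of eIF4F, lay at 587, 598, 578 and 575 CPM in Negative, 717, 741, 754 and 755 CPM in A1 and 727.5, 734, 717 and 706 CPM in A1-OVA. No treated sample overlapped Negative, and the change was 0.34 ± 0.034 (SE, adjusted p = 1.4e-08) and 0.30 ± 0.034 (SE, adjusted p = 1.05e-07). Eif4a2, its close relative, lay at 277, 331, 312 and 308 CPM in Negative, 314.5, 352, 347 and 338 CPM in A1 and 333, 359.6, 438 and 409 CPM in A1-OVA. The A1 samples overlapped Negative and the A1-OVA samples did not, with 0.14 ± 0.067 (SE, adjusted p = 0.0801) and 0.33 ± 0.067 (SE, adjusted p = 0.000252). Eif4a3, the helicase of the exon junction complex, lay at 91.6, 93.7, 88.4 and 95.6 CPM in Negative, 118, 116, 116 and 111 CPM in A1 and 111, 104, 99.1 and 104 CPM in A1-OVA, and rose by 0.32 ± 0.041 (SE, adjusted p = 8.13e-07) and 0.18 ± 0.041 (SE, adjusted p = 0.00082). Small nucleolar RNA genes share annotated exonic bases with Eif4a1 and Eif4a2, and also with Eif4g2, Eif5 and, by 1 base, Eif4g1. Eif4b and Eif4h encode cofactors that stimulate the helicase. Eif4b was lower with A1 at -0.11 ± 0.032 (SE, adjusted p = 0.00515) and not called with A1-OVA at 0.021, and Eif4h was higher with A1 at 0.14 ± 0.038 (SE, adjusted p = 0.00253) and not called with A1-OVA at 0.033.

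The 3 cap-binding relatives of eIF4E did not share a direction. Eif4e lay at 105, 104, 97.6 and 105 CPM in Negative, 134, 129, 140.2 and 136 CPM in A1 and 125.5, 121, 119 and 125 CPM in A1-OVA. Eif4e2, the 4E homologous protein that binds caps without eIF4G, lay at 118, 117, 111 and 112 CPM in Negative, 148, 151, 155 and 150.5 CPM in A1 and 138, 131, 132 and 129 CPM in A1-OVA. In both genes all treated samples stood above all Negative samples. Eif4e changed by 0.39 ± 0.039 (SE, adjusted p = 1.7e-08) and 0.26 ± 0.039 (SE, adjusted p = 7.92e-06), and Eif4e2 by 0.40 ± 0.036 (SE, adjusted p = 3.79e-09) and 0.21 ± 0.036 (SE, adjusted p = 3.87e-05). Eif4e3 (chromosome 6, 99625135 to 99666771) lay at 17.02, 16.1, 13.1 and 15.3 CPM in Negative, 9.47, 7.33, 9.24 and 8.42 CPM in A1 and 9.35, 7.34, 8.19 and 8.69 CPM in A1-OVA. It fell below Negative in every treated sample, at -0.84 ± 0.10 (SE, adjusted p = 2.69e-07) and -0.88 ± 0.098 (SE, adjusted p = 1.12e-07), the largest absolute change among the 46 genes in both comparisons. It shares 373 exonic bases (14.8% of its own) with the protein-coding gene Gm20696 on the same strand, so that reads from there are uncertain. Eif4enif1, the 4E transporter, had 0.12 ± 0.040 (SE, adjusted p = 0.0152) with A1 and 0.078 ± 0.039 (SE, adjusted p = 0.0951) with A1-OVA. Among the scaffolds, Eif4g1 was higher with A1 at 0.15 ± 0.034 (SE, adjusted p = 0.000707) and not called with A1-OVA at 0.029, Eif4g3 was higher in both at 0.24 and 0.19, and Eif4g2, which lacks the site for eIF4E, was not called at 0.023 and -0.054.

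The balance between paralogues of 1 subunit was read from the log2 ratio of their counts within each sample, which does not depend on normalization. The ratio of Eif4a2 to Eif4a1 had a mean of -0.93 ± 0.10 in Negative, -1.14 ± 0.049 in A1 and -0.91 ± 0.20 in A1-OVA (SD, n = 4). The difference from Negative was -0.20 with A1 (exact permutation test, 2-sided, p = 0.0571, adjusted over 6 tests 0.3) and 0.017 with A1-OVA (exact permutation p = 0.857, adjusted 0.857). Eif4a2 was thus lower relative to Eif4a1 in the mean of the A1 samples, a difference that was not called. The ratio of Eif4e2 to Eif4e differed by 0.013 with A1 (exact permutation p = 0.629, adjusted 0.755) and by -0.045 with A1-OVA (exact permutation p = 0.2, adjusted 0.3). That of Eif4g3 to Eif4g1 differed by 0.090 (exact permutation p = 0.143, adjusted 0.3) and 0.16 (exact permutation p = 0.171, adjusted 0.3). With 4 samples a group the smallest p this test can give is 0.0286, and no ratio reached it. After adjustment over the 6 tests, 1 ratio alone at that p would stay above 0.05. The adjusted test therefore cannot decide on a single ratio.

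Of 15 genes of 4E-BPs and cap-complex regulators, 14 were tested. With A1 4 were higher and 5 lower (28.6% and 35.7%, median log2 fold change 0.011), near the 31.7% and 31.1% of all tested genes, and with A1-OVA 4 were higher and 3 lower (28.6% and 21.4%, median -0.037), beside 29.7% and 27.9%. Eif4ebp1, the 4E-BP that is released from eIF4E on phosphorylation by mTORC1, lay at 58.5, 44.6, 51.98 and 55.7 CPM in Negative, 89.9, 87.04, 83.4 and 85.9 CPM in A1 and 86.6, 84.2, 85.4 and 81.4 CPM in A1-OVA. It rose without overlap, by 0.72 ± 0.060 (SE, adjusted p = 9.75e-10) and 0.68 ± 0.059 (SE, adjusted p = 2.35e-09). Eif4ebp2 had -0.014 with A1 and -0.12 ± 0.039 (SE, adjusted p = 0.0102) with A1-OVA, and Eif4ebp3 had at most 2 counts and was not tested. Mknk2, a kinase of eIF4E, fell from 151 ± 12.5 CPM in Negative to 96.9 ± 2.95 CPM in A1 (SD, n = 4), at -0.64 ± 0.052 (SE, adjusted p = 6.31e-10) and -0.57 ± 0.051 (SE, adjusted p = 3.07e-09) with A1-OVA. Pdcd4, an inhibitor that binds eIF4A, lay at 70.4, 71.5, 67.5 and 60.3 CPM in Negative, 33.2, 28.6, 36.95 and 33.8 CPM in A1 and 30.4, 28.8, 28.9 and 31.4 CPM in A1-OVA. Every treated sample was below every Negative sample, at -1.02 ± 0.066 (SE, adjusted p = 1.36e-11) and -1.17 ± 0.066 (SE, adjusted p = 1.51e-12).

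Of the 5 genes grouped by symbol under eIF5, eIF5A, eIF5B and eIF6, 4 were higher (80%) in both comparisons. Of all tested genes, 31.7% were higher with A1 and 29.7% with A1-OVA. Eif5a, the hypusine-bearing factor that helps ribosomes along difficult stretches, lay at 722, 636.5, 662.5 and 684 CPM in Negative, 918, 841, 923 and 885 CPM in A1 and 834, 810.5, 793 and 775 CPM in A1-OVA. Its changes were 0.40 ± 0.043 (SE, adjusted p = 4.84e-08) and 0.25 ± 0.043 (SE, adjusted p = 3.7e-05), without overlap against Negative. Eif5a2 (chromosome 3, 28781276 to 28798846), its paralogue, lay at 37.9, 41.1, 37.8 and 39.9 CPM in Negative, 58.2, 59.8, 64.2 and 62.2 CPM in A1 and 57.3, 56.4, 60.3 and 53.5 CPM in A1-OVA. It had the largest rise of the 46 genes with A1, 0.64 ± 0.051 (SE, adjusted p = 4.28e-10), and 0.54 ± 0.051 (SE, adjusted p = 7.72e-09) with A1-OVA, again without overlap. The 95% intervals of these 2 genes with A1 were 0.31 to 0.49 and 0.53 to 0.75, and the difference between them was not tested. Eif6 (chromosome 2, 155819832 to 155826925), which keeps the large subunit from joining early, lay at 73.2, 60.5, 71.7 and 66.4 CPM in Negative, 104, 94.5, 97.5 and 94.8 CPM in A1 and 94.9, 95.1, 96.1 and 89.9 CPM in A1-OVA, without overlap, at 0.52 ± 0.052 (SE, adjusted p = 1.67e-08) and 0.47 ± 0.052 (SE, adjusted p = 1e-07). Eif5, which triggers GTP hydrolysis by eIF2, had 0.24 ± 0.040 (SE, adjusted p = 2.84e-05) and 0.23 ± 0.040 (SE, adjusted p = 5.23e-05), and Eif5b, which joins the subunits, was not called at 0.032 and 0.0098.

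**Figure D4:**
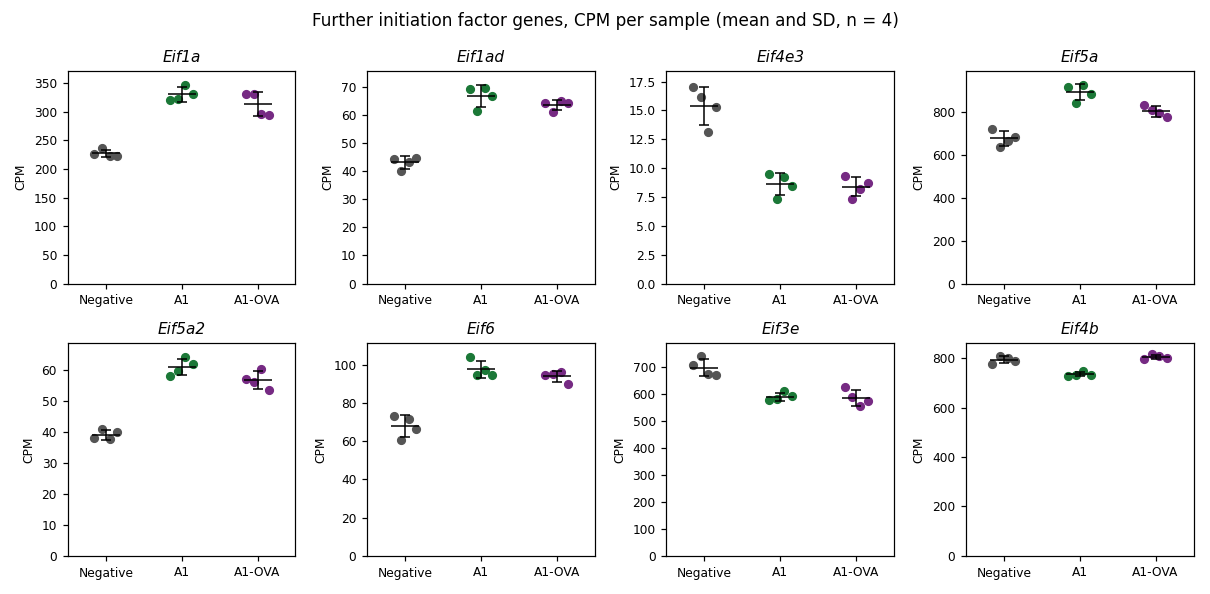
CPM in each sample (points) with group mean and SD (bars, n = 4) for 6 genes of the eIF1, eIF4E, eIF5A and eIF6 families and for Eif3e and Eif4b, which were lower with A1, every vertical axis starting at 0. Eif1a, Eif1ad, Eif5a, Eif5a2 and Eif6 stand higher in both treated groups, Eif4e3 and Eif3e stand lower in both, and Eif4b is lower in A1 alone of the groups plotted.

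Between A1-OVA and A1, 9 initiation factors were called, and 8 of them were lower in A1-OVA. In detail, 1 of the 46 genes was higher in A1-OVA (2.17%) and 8 were lower (17.4%), where 6.05% of all tested genes were higher and 6.81% lower. The median log2 fold change was -0.052, against 0.0057 over all tested genes, and 8 of the 46 values were positive. Past an absolute log2 fold change of 0.5 stood 1 gene, Eif3j2, where 1.20% of all tested genes did so. The comparison uses the same A1 samples as that of A1 with Negative, so that the comparisons are not independent of each other.

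Among the 8 genes that were lower in A1-OVA, Eif4e2 had the smallest adjusted p, with a log2 fold change of -0.19 ± 0.036 (SE, adjusted p = 0.00139), and its groups did not overlap. Eif3b followed at -0.16 ± 0.032 (SE, adjusted p = 0.00226), also without overlap. Eif1ax had -0.16 ± 0.044 (SE, adjusted p = 0.0169), Eif5a -0.15 ± 0.043 (SE, adjusted p = 0.0224), Eif4e -0.13 ± 0.039 (SE, adjusted p = 0.0261) and Eif4a3 -0.14 ± 0.041 (SE, adjusted p = 0.0279), the last with overlapping samples. Eif4g1, the scaffold of eIF4F, lay at 1054, 1094, 1108 and 1111 CPM in Negative, 1218, 1220, 1196 and 1212 CPM in A1 and 1156, 1095, 1119 and 1086 CPM in A1-OVA. Its A1-OVA samples were all below those of A1, at -0.12 ± 0.034 (SE, adjusted p = 0.0235), and lay in the range of Negative or just above it. Eif3j2 lay at 1.67, 1.95, 1.67 and 2.26 CPM in Negative, 2.53, 2.37, 2.21 and 2.47 CPM in A1 and 1.88, 1.52, 1.39 and 1.54 CPM in A1-OVA, and the A1-OVA samples stood below those of A1 at -0.60 ± 0.17 (SE, adjusted p = 0.025). Its level is the lowest of the 46 genes, and DESeq2 gave an adjusted p of 0.084. Eif4b, the only gene called in the other direction, lay at 777, 808, 802 and 789 CPM in Negative, 729, 734, 747 and 732 CPM in A1 and 797, 816, 808 and 801.5 CPM in A1-OVA. It was lower in A1 than in both other groups, and A1-OVA stood above A1 at 0.13 ± 0.032 (SE, adjusted p = 0.00951), without overlap.

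Leaving out 1 sample moved the count of lower genes between 4 and 10. Without A1 replicate 1 it was 5, and it was 4 without A1 replicate 3 and without A1-OVA replicate 2, 3 or 4. Eif3b, Eif4e2 and Eif4b were called in all 20 other settings of the fit. Calls of Eif3j2 and Eif4a3 were each lost in 6 of them, those of Eif4e and Eif5a in 4, that of Eif4g1 in 3 and that of Eif1ax in 2.

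**Figure D5:**
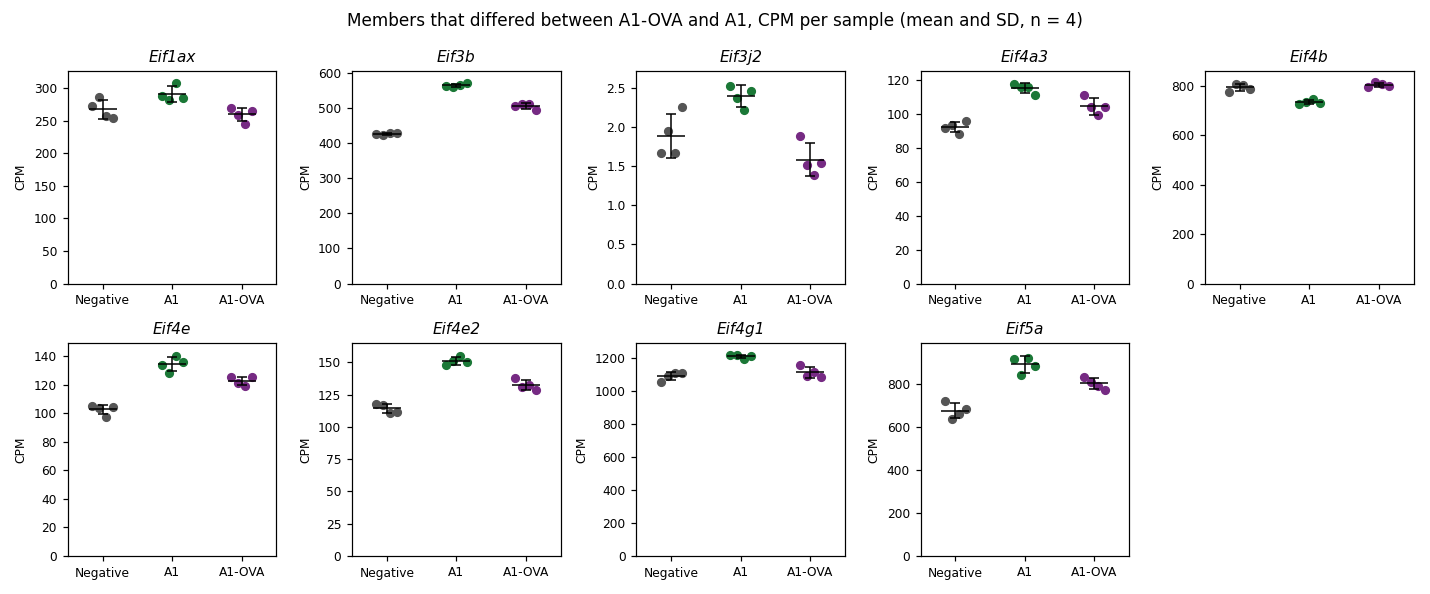
CPM in each sample (points) with group mean and SD (bars, n = 4) for the 9 initiation factor genes called in A1-OVA against A1, every vertical axis starting at 0. In 8 panels A1-OVA lies below A1, most often between A1 and Negative, and in the panel of Eif4b it lies above A1.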

How the data were processed

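RNA was measured in 12 samples, 4 per group, grouped by the sample titles, and the deposited values are raw counts per gene. Per the labels and methods, the authors made stranded poly(A) libraries, aligned paired-end reads to GRCm38 with STAR 2.7 and counted them with featureCounts 2.0. Multi-mapped reads may be missing from near-identical copies. Symbols, biotypes and exons came from GENCODE M21, which holds 99.53% of the identifiers. After filterByExpr on protein-coding genes and TMM scaling, edgeR 4.0.16 gave the tests (R 4.3.3, quasi-likelihood, 1 fit of 12 samples), with Benjamini-Hochberg adjustment over 11314 genes and calls under 0.05. CPM use TMM library sizes. The genes, the lists of related genes and the alternatives (DESeq2 1.42.0, other normalizations and filters, a replicate block, samples left out) were chosen with earlier results of these data known. Values per sample were given for all eIF2 and eIF2B genes, for genes called against Negative with a log2 fold change of 0.3 or more either way and for those called between A1-OVA and A1. On simulated counts of A1 against Negative (11314 genes) edgeR recovered 74.5% of genes changed by 0.5 and 96.1% of those changed by 1 on the log2 scale, and called 11 unchanged genes. The simulation gave every gene the same dispersion and changed 98 genes by 0.5 and 102 by 1, far fewer than were called here. Its rates are therefore not the sensitivity of this comparison. Replicates differed by 1.92 to 6.83 times the counting variance, so that none is a copy of another. Proteins of paralogues were not compared, and 1 marker gene is not reported here.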

Additional observations from a re-analysis of the deposited data

Results flagged for a closer look

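In 9 of 147 groups of 4 samples examined (each tested gene and each paralogue ratio in each group), 1 sample stood apart from the other 3 by Dixon's criterion at the 95% level. Chance flags about 1 in 20 groups. Negative replicate 2 was high for Eif2a at 120.3 CPM (others 108.5 to 110.2), for Eif2s2 at 343.6 CPM (others 303.6 to 305.4) and for Eif5 at 484.6 CPM (others 436.6 to 437.8). Negative replicate 3 was low for Eif4e at 97.58 CPM (others 103.9 to 105). A1 replicate 1 was high for Eif3l at 280.7 CPM (others 268.8 to 269.3) and low for Eif5b at 329.4 CPM (others 377 to 380.5). A1 replicate 2 was low for Eif4h at 282.6 CPM (others 302.4 to 303.8) and high for the log2 ratio of Eif4e2 to Eif4e at 0.2306 (others 0.1418 to 0.1475). A1-OVA replicate 4 was low for Eif2b3 at 41.35 CPM (others 44.14 to 44.7). The part of depth or library preparation in these values was not tested.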

How the results depend on the processing

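Counts of called genes against Negative stayed within 1.5 times under DESeq2, RLE and upper-quartile normalization, both other filters, all genes of the file, fits of the compared groups alone, the replicate block and every sample left out. The median over all tested genes of the difference in log2 fold change from the main fit was at most 0.0293 in absolute value. TMM factors ran from 0.9745 to 0.9882 in A1, 0.9819 to 0.9932 in A1-OVA and 1.0265 to 1.0418 in Negative. This scaling raises every log2 fold change against Negative above that from library size alone. Asking for a change of 0.5 or more either way left 5 higher and 1 lower with A1, 3 higher and 1 lower with A1-OVA, and 0 higher and 1 lower in A1-OVA against A1. There, 2 genes were higher with no filter and 2 with the replicate block, 1 to 2 with a sample left out, and 4 to 10 were lower with a sample left out. The deviations of samples of the same number had a mean r of 0.0215 over 12 pairs (from -0.1323 to 0.1559). Those of different numbers had -0.007 over 36 pairs. A low mean r cannot decide whether samples of the same number shared a mouse, culture or day, and the labels do not say. The ratio of Eif4a2 to Eif4a1 ran from -0.255 to -0.1784 with A1 when 1 sample was left out, with the smallest possible p of 0.0286 without Negative replicate 1, and from -0.0506 to 0.0881 with A1-OVA. That of Eif4e2 to Eif4e with A1 ran from -0.0086 to 0.0233, and that of Eif4g3 to Eif4g1 from 0.051 to 0.125 (exact permutation p = 0.0286 without Negative replicate 3). Log2 fold changes that crossed 0 belonged to genes without a call. With A1 these were Eif1b (-0.0014 with DESeq2, -0.0015 with RLE, -0.0288 with upper quartile, -0.0026 with no filter, -0.0043 with at least 10 counts, -0.0069 with all genes, down to -0.0349 with a sample left out and up to 0.0372), Eif4g2 (-0.0065 with upper quartile) and Eif2ak4 (-0.0202 with upper quartile), and, over the samples left out, Eif2b4 (-0.058 to 0.0292), Eif2d (-0.0467 to 0.0231), Eif5b (-0.0182 to 0.0761), Eif2ak4 (-0.0155 to 0.037) and Eif4ebp2 (-0.0379 to 0.0067). With A1-OVA they were Eif4b (-0.0019 with upper quartile), Eif5b (-0.0127 with upper quartile, -0.0023 with all genes, and -0.0397 to 0.0546 over the samples left out) and Eif2b4 (-0.0352 to 0.0232). In A1-OVA against A1 only the eIF2 and eIF2B genes and the genes called there were followed over the settings. Among these, the genes that crossed 0 were Eif2b4 (0.0031 with upper quartile, and -0.0533 to 0.0442 over the samples left out), Eif2b5 (-0.0001 to 0.035) and Eif2s1 (-0.0587 to 0.0129). The causes were not tested. Eif4a2 with A1 was called in 6 of 20 settings, with an adjusted p of 0.0209 under the replicate block. Calls against Negative that other settings lost were those of Eif2b5, Eif2s3x, Eif3l, Dohh and Eif2ak4 with A1-OVA, in 13, 9, 6, 4 and 2 of 20 settings, and of Eif1ax and Eif4enif1 with A1, in 4 and 3. Eif3j2, with 21 to 36 counts per sample, had the fewest counts of the tested initiation factors.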

Other observations

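Of 15 partners of the initiation factors outside the Eif symbols, 9 were higher and 2 lower with A1 (60% and 13.3%, median log2 fold change 0.12), beside 31.7% and 31.1% of all tested genes. With A1-OVA 5 were higher and 2 lower (33.3% and 13.3%, median 0.042), beside 29.7% and 27.9% of all tested genes. Denr, which with Mcts1 resembles eIF2D and acts after short upstream reading frames, lay at 175, 185, 167 and 177 CPM in Negative, 347, 360.4, 399 and 361 CPM in A1 and 381, 353, 319.5 and 336 CPM in A1-OVA. Its 4 A1 samples and 4 A1-OVA samples stood far above the Negative samples, at 1.06 ± 0.052 (SE, adjusted p = 1.49e-13) and 0.98 ± 0.052 (SE, adjusted p = 6.31e-13). Its partner gene Mcts1 was lower with A1, at a mean of 41.4 ± 1.07 CPM in Negative and 36.8 ± 2.28 CPM in A1 (SD, n = 4), without overlap. Eif2d itself had -0.0089 and -0.066 and was not called.

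Of 12 tested elongation and release factors, 9 were higher and 1 lower with A1 (75% and 8.33%, median 0.27), and 10 were higher with A1-OVA (83.3%, median 0.21), where all 12 values were positive. Of all tested genes, 31.7% were higher and 31.1% lower with A1, and 29.7% were higher with A1-OVA. Eef1e1, a scaffold of the tRNA synthetase complex, lay at 42.5, 38.95, 40.3 and 37.6 CPM in Negative, 55.7, 58.3, 63.97 and 53.95 CPM in A1 and 66.8, 66.4, 55.7 and 55.2 CPM in A1-OVA, at 0.54 ± 0.069 (SE, adjusted p = 6.49e-07) and 0.61 ± 0.068 (SE, adjusted p = 9.16e-08). Dohh, the hydroxylase that completes the hypusine of eIF5A, was expressed at 2.58 ± 0.554 CPM in Negative and 3.77 ± 0.216 CPM in A1 (SD, n = 4) and rose by 0.55 ± 0.17 (SE, adjusted p = 0.00808), with 0.46 ± 0.17 (SE, adjusted p = 0.0231) in A1-OVA, a call lost in 4 of 20 other settings, while Eef1a1 was not called at 0.0026. Of 9 mitochondrial translation factors, 3 were higher and 1 lower with A1 (33.3% and 11.1%, median 0.0083), beside 31.7% and 31.1% of all tested genes. With A1-OVA 2 were higher and 7 not called (22.2% higher, 0% lower, median -0.031), beside 29.7% higher and 27.9% lower. Their shares of higher genes were thus near those of all tested genes, and their shares of lower genes stood below. Of 11 further rows of the table with an Eif symbol that are not protein-coding, Eif4a-ps4 reached 108 counts, Eif5al3-ps 57 and Eif3s6-ps2 19.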
